A study of Mus musculus with 8 samples.

Results

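The 10 genes described here encode neuropeptides and gut hormones: Pdyn, Penk, Npy, Gast, Cck, Nts, Tac1, Gal, Adcyap1 and Vip. They were taken by symbol from a table of 27534 mouse genes, and all 10 had a row. The set was chosen by the counts themselves: it was drawn up around the high against low glucose read counts of Pdyn, so the values of these 10 genes in that contrast are given as a description, without a test. Bulk RNA sequencing of pancreatic islets from C57BL/6J mice gave a read count for each gene. Islets were held for 72 h in RPMI 1640 with 10% fetal bovine serum and 1 mM HEPES at either 20 mM glucose (high glucose, 4 libraries) or 7.5 mM glucose (low glucose, 4 libraries). No genetic change is named for either group. The number of mice behind a library, their age and their sex were not stated, so p-values measure the spread between these libraries, which may be partly technical. A whole islet holds several endocrine cell types with vessels, nerve endings and some exocrine tissue, so in these data fewer cells of a type and less RNA per cell cannot be told apart.

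Neuropeptides and gut hormones are made as long precursors, cut inside secretory granules by prohormone convertases, trimmed, in many cases amidated at the end, and released with the granule content to act on G protein-coupled receptors. Prodynorphin and proenkephalin are opioid precursors. Gastrin and cholecystokinin are sister hormones of the gut that are also known from the fetal or stressed endocrine pancreas. Neuropeptide Y, galanin, the vasoactive intestinal peptide (VIP) and its relative PACAP, encoded by Adcyap1, are classical peptides of pancreatic nerves, and neuropeptide Y is also made in immature β cells. Neurotensin, encoded by Nts, and substance P, encoded by Tac1, are peptides of gut endocrine cells and of sensory and enteric nerves.

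The sequences that tie these genes into families lie in their coding regions. In Pdyn, the reading frame of transcript ENSMUST00000028883 holds copies of the Leu-enkephalin core, each preceded by a pair of codons for basic residues, the signal for convertase cleavage. Those that open dynorphin A and dynorphin B lie in exon 4 of 4 on the minus strand of GRCm38 and differ in codon spelling. In Penk, transcript ENSMUST00000070375 holds 6 Met-enkephalin cores and 1 Leu-enkephalin core in exon 2 of 2, again each after a basic pair. These Pdyn copies and the Leu-enkephalin copy of Penk are shown because they are the part that the opioid receptors recognise. Capitals mark the core codons, read 5′ to 3′ along the transcript.
Pdyn dynorphin A copy, chr2:129688094-129688150: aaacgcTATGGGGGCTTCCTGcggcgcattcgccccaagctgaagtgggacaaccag
Pdyn dynorphin B copy, chr2:129688037-129688093: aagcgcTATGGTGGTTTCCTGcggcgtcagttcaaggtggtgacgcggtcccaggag
Penk Leu-enkephalin copy, chr4:4133905-4133961: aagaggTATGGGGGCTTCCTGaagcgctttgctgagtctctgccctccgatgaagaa

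Gast and Cck share the codons of the tetrapeptide with which both hormones end and by which both bind the cholecystokinin receptors. Over these 12 bases, in capitals, the genes differ at 1 base, and in both the stretch is followed by the codons of an amidation and cleavage signal. Gast lies on the plus strand (ENSMUST00000017309, exon 3 of 3) and Cck on the minus strand (ENSMUST00000035120, exon 3 of 3).
Gast, chr11:100336840-100336878: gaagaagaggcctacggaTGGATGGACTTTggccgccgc
Cck, chr9:121490098-121490136: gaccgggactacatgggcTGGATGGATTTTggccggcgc

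The 8 libraries held 19543045 to 24949515 counts, so that 3 counts, taken as the detection floor, correspond to 0.12 to 0.154 CPM, the count scaled to a common library size. That floor covers counting error only. The islet label was borne out by abundance: 8 β-cell markers took 19.4% to 25.4% of all counts, and Gcg, Sst and Ppy were among the 10 protein-coding genes with the highest FPKM in both groups. FPKM is the authors' value, scaled for gene length and library total. CPM values below use library sizes scaled by TMM, fold changes are high over low glucose, and errors are SD over n = 4 libraries a group unless marked SE. Of 15442 genes tested, edgeR called 25% at adjusted p under 0.05, 13.1% higher and 11.9% lower in high glucose. With the replicate number as a block it called 37.4%, and the shares beside the lists below are from the fit without it. Of all calls 52.5% were higher, or 37.8% when libraries were scaled by their size alone, which moved the median log2 fold change of all genes from -0.01 to -0.09.

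Of the opioid precursors, Pdyn (ENSMUSG00000027400, chromosome 2, 129686565 to 129699844) was by far the more abundant. High glucose replicates 1 to 4 held 13040, 18158, 20032 and 19791 Pdyn reads, and low glucose replicates 1 to 4 held 1526, 1527, 2063 and 1908. The groups did not overlap, and the lowest high glucose library, at 627 CPM, lay far above the highest low glucose library, at 97.7 CPM. The means were 829 ± 151 and 82.2 ± 17.5 CPM, and the fitted log2 fold change was 3.33 ± 0.19 (SE), or 10.1-fold. Within same-numbered pairs the ratio was 10.8, 11.5, 9.67 and 8.73, so each pair showed nearly the same difference. Within a group Pdyn varied little, 1.51-fold from the lowest to the highest library in high and 1.69-fold in low glucose. In both groups replicate 1 was the lowest library and replicate 3 the highest, level with replicate 2 in high glucose.

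Penk (ENSMUSG00000045573, chromosome 4, 4133531 to 4138819), the sister precursor with more enkephalin copies, was near the detection floor. It had 21, 15, 13 and 21 reads in high and 7, 20, 12 and 12 reads in low glucose. The groups overlapped, with low glucose replicate 2 as the highest of all libraries at 1.07 CPM and low glucose replicate 1 as the lowest at 0.265 CPM. The means were 0.813 ± 0.165 and 0.620 ± 0.334 CPM, and the log2 fold change was 0.42 ± 0.41 (SE). On the per-length scale, Pdyn was at 284 ± 52.1 FPKM and Penk at 0.492 ± 0.098 FPKM in high glucose, and at 27.8 ± 6.01 and 0.370 ± 0.198 FPKM in low glucose.

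**Figure D1:**
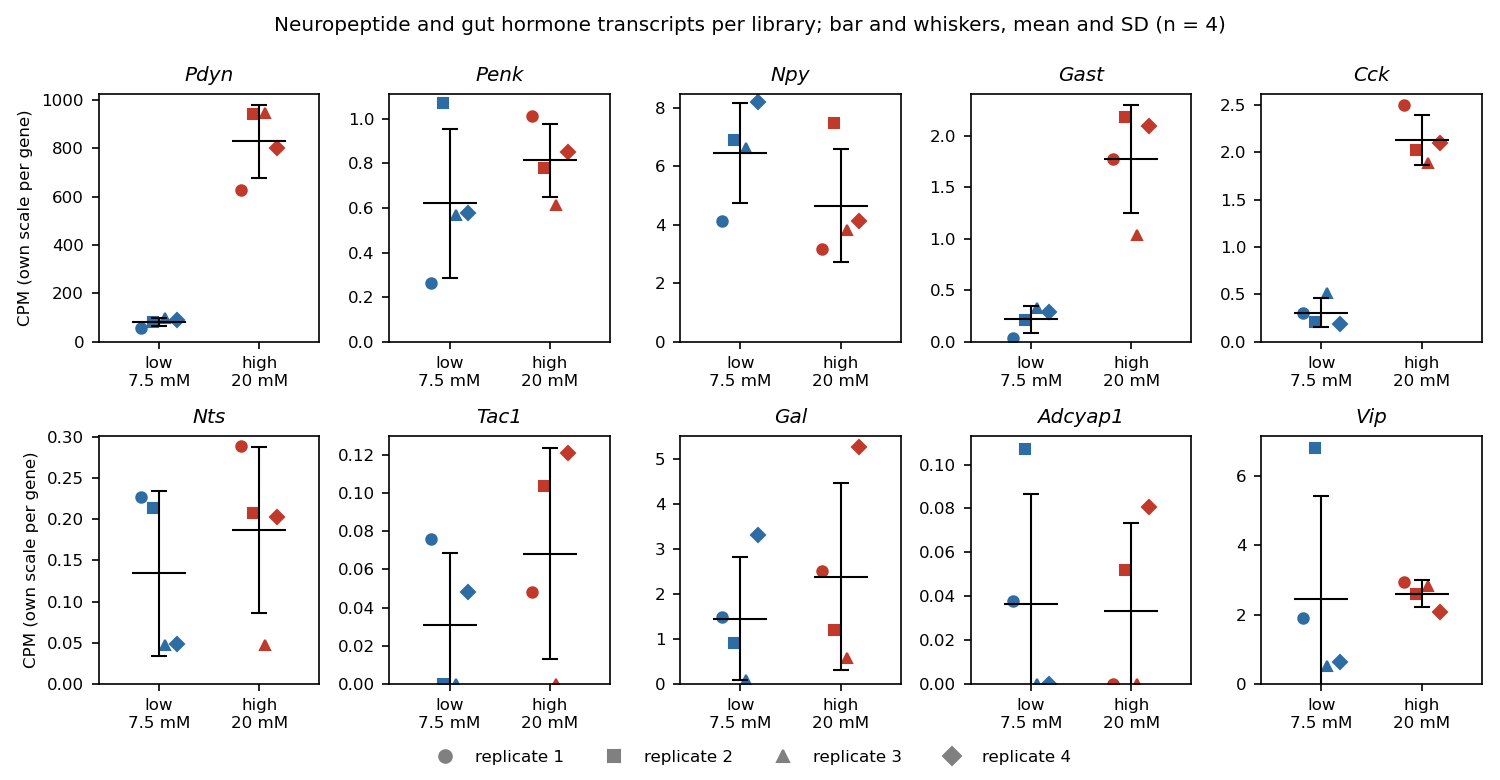
Transcript level in CPM (vertical axis, own linear scale from 0 for each gene) of the 10 peptide genes in low (7.5 mM, blue) and high (20 mM, red) glucose. Points are libraries, shaped by replicate number, and black bars and whiskers are mean and SD over n = 4, with whiskers drawn down to 0 at most. The groups stand apart for Pdyn, Gast and Cck and overlap for the other genes.

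Gast and Cck, the gut hormone pair, were rare transcripts that stood apart between the groups. Gast (ENSMUSG00000017165, chromosome 11, 100334407 to 100336996) had 37, 42, 22 and 52 reads in high glucose against 1, 4, 7 and 6 in low glucose. The lowest high glucose library, replicate 3 at 1.04 CPM, was above the highest low glucose library, replicate 3 at 0.331 CPM. The means were 1.78 ± 0.522 and 0.218 ± 0.129 CPM, a log2 fold change of 3.04 ± 0.48 (SE). Since low glucose replicate 1 held 1 read, the ratio of summed reads is given with its counting interval: it was 8.60, with an exact 95% interval of 5.26 to 14.9 for counting error only.

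Cck (ENSMUSG00000032532, chromosome 9, 121489824 to 121495694) had 52, 39, 40 and 52 reads in high glucose and 8, 4, 11 and 4 in low glucose. The high glucose libraries lay close together, between 1.89 and 2.5 CPM, and all low glucose libraries were at or below 0.521 CPM. The means were 2.13 ± 0.264 and 0.308 ± 0.15 CPM, a log2 fold change of 2.76 ± 0.33 (SE), or 6.78-fold. For both hormones high glucose was above low glucose in each of the 4 same-numbered pairs. Markers of gut endocrine cells, the usual source of both hormones outside the brain, were read beside them. Of 6 such markers Gip was not analysed here, 3 were tested and none was called by edgeR. Sct and Tph1 were below the filter, Sct at 0.315 ± 0.214 and 0.378 ± 0.208 CPM and Tph1 at 0.386 ± 0.0902 and 0.129 ± 0.105 CPM, where the groups of Tph1 did not overlap. The summed list spanned 411 to 497 CPM in high glucose against 375 to 432 CPM and was higher in high glucose in 3 of 4 same-numbered pairs. Nearly all of the sum came from Insm1, which islet cells express. The part of such cells in the Gast and Cck values was not tested.

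Npy (ENSMUSG00000029819, chromosome 6, 49822710 to 49829507), encoding an inhibitory peptide of sympathetic nerves, was the tested gene of the set with a lower mean in high glucose. It had 66, 144, 81 and 102 reads in high and 109, 129, 140 and 171 reads in low glucose. The groups overlapped, because high glucose replicate 2 at 7.49 CPM exceeded 3 low glucose libraries and low glucose replicate 1 at 4.13 CPM was level with high glucose replicate 4 at 4.12 CPM. The means were 4.65 ± 1.93 and 6.47 ± 1.70 CPM, a log2 fold change of -0.48 ± 0.29 (SE). Without high glucose replicate 2 the value was -0.80.

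Gal (ENSMUSG00000024907, chromosome 19, 3409919 to 3414472), which encodes galanin, an inhibitor of insulin release, varied more between replicate numbers than between glucose groups. It had 52, 23, 12 and 130 reads in high and 39, 17, 2 and 69 reads in low glucose. In both groups replicate 4 was highest, followed by replicates 1, 2 and 3. Of all tested genes 10.7% had their replicate numbers in one and the same order in both groups, whichever order that was. The spread was 9.29-fold within high and 35.0-fold within low glucose, against means of 2.38 ± 2.08 and 1.45 ± 1.37 CPM. The log2 fold change was 0.73 ± 0.79 (SE), and high glucose was higher in each same-numbered pair, by 1.69, 1.31, 5.98 and 1.59 times. Without high glucose replicate 4 the log2 fold change was -0.03 and without low glucose replicate 4 it was 1.5.

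The level of exocrine transcripts ran alongside that of Gal in part. The 9 acinar markers summed to 8238, 2907, 2981 and 15400 CPM in high glucose replicates 1 to 4 and to 6385, 2685, 1044 and 8893 CPM in low glucose replicates 1 to 4, led by Ctrb1 and Prss2. Replicate 4 was highest and replicate 1 next in both groups, as for Gal. In high glucose the acinar sums of replicates 2 and 3 were nearly equal, while Gal was at 1.195 and 0.566 CPM there. The acinar sum was higher in high glucose in each of the 4 same-numbered pairs. None of the 8 acinar markers tested was called in the fit without the replicate number as a block. Schwann cell markers, which stand for nerve tissue, ranged less, from 31.8 to 46.1 CPM in high and from 19.2 to 38.3 CPM in low glucose. Replicate 3 was lowest in both groups for the Schwann list and for Gal. The Schwann list was highest in replicate 2 of both groups, whereas Gal was highest in replicate 4. The part of either tissue in the Gal values was not tested.

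**Figure D2:**
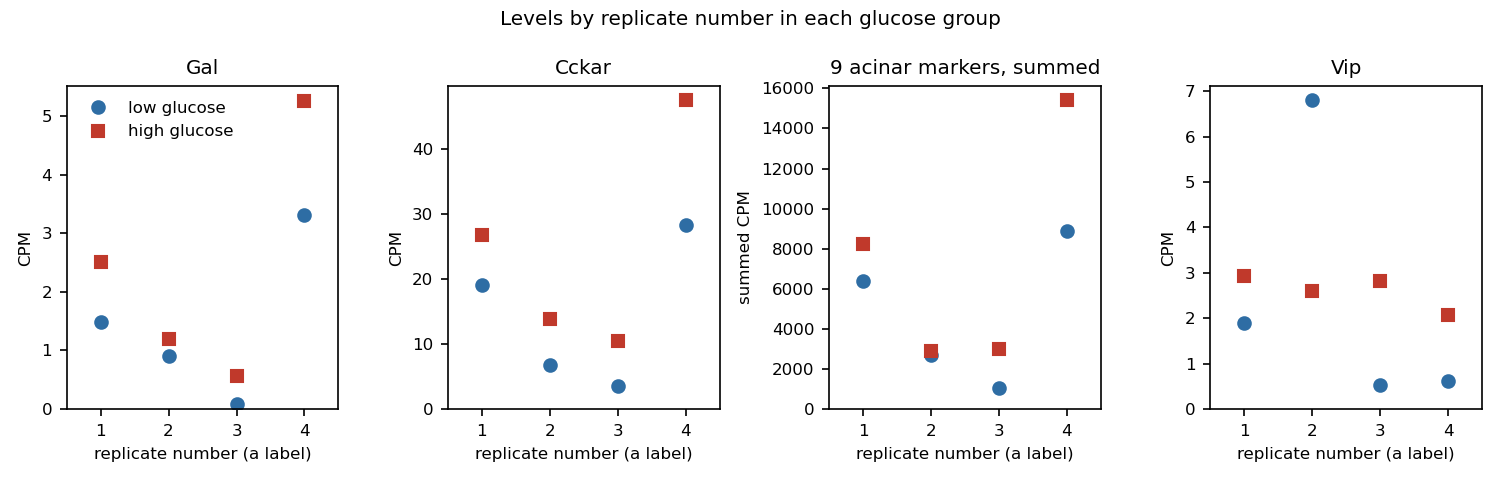
Levels of Gal, Cckar, the summed acinar markers and Vip (vertical axes, CPM, linear from 0) by replicate number (horizontal axis) in low (blue circles) and high (red squares) glucose, 1 point per library. Gal, Cckar and the acinar markers are highest in replicate 4 of both groups, at 5.26 and 3.31 CPM for Gal, while Vip has its highest value, 6.80 CPM, in low glucose replicate 2.

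Of the pair of related peptides VIP and PACAP, which raise cAMP and potentiate insulin release, only Vip was measurable (ENSMUSG00000019772, chromosome 10, 5639218 to 5647617). It had 61, 50, 60 and 51 reads in high and 50, 127, 11 and 13 reads in low glucose. The means were alike, 2.61 ± 0.389 and 2.46 ± 2.96 CPM, but the spread was not. The high glucose libraries were within 1.42-fold of each other and the low glucose libraries spanned 13.1-fold, with replicate 2 above and the other 3 below all high glucose libraries. The log2 fold change was 0.10 ± 0.66 (SE). Without low glucose replicate 2 it was 1.32, or 2.5-fold, with limma-voom it was 0.85, and it was -0.01, -0.23 and -0.22 without low glucose replicates 1, 3 and 4.

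Of 13 neuronal markers, 8 were tested by edgeR, of which Tubb3 rose (adjusted p = 8.29e-05) and Elavl4 fell (adjusted p = 0.0108). Their sum, most of it from Snap25, Tubb3 and Elavl4, ranged from 234 to 281 CPM in high and from 220 to 263 CPM in low glucose, and low glucose replicate 2 was not the highest. Of the 13 markers, 7 had their highest low glucose value in replicate 2 and 6 did not, among them Snap25, Elavl4 and Th. This tally includes genes below the filter, Elavl3 and Slc18a3 among the 7 and Dbh, Chat and Nefl among the 6. Dbh was at 0 CPM in every low glucose library. Of the 7, Prph and Stmn2 are given as examples chosen after their values were seen. Prph was at 1.98 CPM in low glucose replicate 2 against 0.331 to 0.432 CPM in the other low glucose libraries. Stmn2 was at 1.55 CPM there against 0.096 to 0.645 CPM. Their part in the Vip values was not tested. Adcyap1 (ENSMUSG00000024256, chromosome 17, 93199422 to 93205485) had 0, 1, 0 and 2 reads in high and 1, 2, 0 and 0 reads in low glucose, under the floor in every library, so no fold is given.

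Nts and Tac1 were also close to or under the floor. Nts (ENSMUSG00000019890, chromosome 10, 102481756 to 102490486) had 6, 4, 1 and 5 reads in high and 6, 4, 1 and 1 reads in low glucose, a ratio of 1.35 with an exact 95% counting interval of 0.599 to 3.13. Tac1 (ENSMUSG00000061762, chromosome 6, 7554879 to 7565834) had 1, 2, 0 and 3 reads in high and 2, 0, 0 and 1 reads in low glucose, at or under 3 in every library, and no fold is given. At this depth no difference was detectable for either gene.

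Counted together, 7 of the 10 genes passed the filter on low counts, and Nts, Tac1 and Adcyap1 did not. Pdyn, Gast and Cck, 3 of these 7, had no overlap between groups with high glucose above, beside 13.7% of all tested genes. None stood apart with high glucose below, beside 13.6%, and the other 4 overlapped. Because the set was chosen with this contrast known, and genes passed the filter through the group in which they were higher, nothing is read from these counts.

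Per length, the order of the 10 genes differed between the groups only below the top. Pdyn led and Npy was next in both, at 8.12 ± 3.33 FPKM in high and 11.2 ± 3.00 FPKM in low glucose, with no overlap with their neighbours in the order. In high glucose Npy did overlap Gal, further down the order (5.54 to 13 against 0.794 to 7.31 FPKM). In high glucose Gast (3.82 ± 1.11 FPKM), Gal (3.31 ± 2.89) and Cck (1.61 ± 0.195) came next, where Gal overlapped both of its neighbours, and Vip (0.758 ± 0.114), Penk and Nts (0.148 ± 0.080) followed, with Vip and Penk overlapping. In low glucose the genes from Gal (1.99 ± 1.90 FPKM) through Vip (0.703 ± 0.845), Gast (0.463 ± 0.275), Penk, Cck (0.230 ± 0.111) and Nts (0.105 ± 0.078) each overlapped the next. Tac1 and Adcyap1 were last and overlapped each other in both groups.

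Prodynorphin was the most abundant transcript of the set in both groups. By mean FPKM, Pdyn ranked 83 of 17059 protein-coding genes in high glucose and 1302 in low glucose, while Npy ranked 4709 and 3574. The islet hormones remained well above it: Pyy, the least abundant of those compared, was at 1930 ± 468 FPKM in high and 1952 ± 540 FPKM in low glucose, Sst at 4070 ± 941 and 2549 ± 903, and Ins2 at 121100 ± 18730 and 114200 ± 23780.

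**Figure D3:**
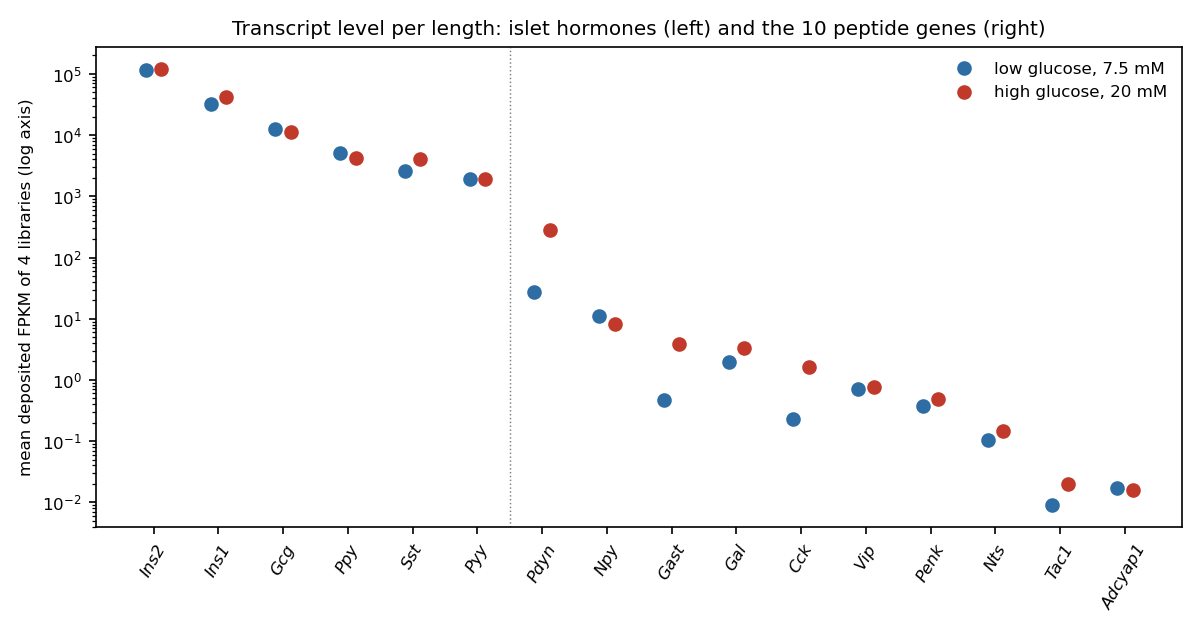
Mean deposited FPKM of n = 4 libraries (vertical axis, log scale) of 6 islet hormone genes, left of the dotted line, and of the 10 peptide genes, right, ordered by the level in high glucose. Blue is low and red is high glucose. Pdyn, at 284 and 27.8 FPKM, lies between the islet hormones and the other peptide genes.

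Receptors for these peptides were read from the same fit. Of 22 receptor genes, 7 were not analysed here, among them the dynorphin receptor gene Oprk1, and 8 of the other 15 passed the filter. Of these 8, 4 rose and 2 fell, or 75%, beside 25% of all tested genes, with a median log2 fold change of 0.66 against -0.01 for all genes. Galanin receptors were the best represented. Galr1, an inhibitory receptor, rose 1.67-fold from 25.4 ± 2.48 to 42.6 ± 3.3 CPM (log2 0.74 ± 0.09 SE, edgeR adjusted p = 0.00021). Galr2 rose from 5.23 ± 0.837 to 8.95 ± 1.31 CPM (adjusted p = 0.00587). Galr3, which overlaps Gcat, had 28.2 ± 1.21 and 24.9 ± 2.51 CPM and was not called (adjusted p = 0.163).

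The VIP and PACAP receptor Vipr1 rose 1.5-fold, from 64.2 ± 2.5 to 96.5 ± 7.34 CPM (edgeR adjusted p = 0.000246), whereas Vipr2 fell from 5.45 ± 0.804 to 3.51 ± 0.8 CPM (adjusted p = 0.0401). The Vipr2 call rested on most libraries at once. It was lost in the fits that left out 1 high glucose library of replicates 1, 2 and 3, or 1 low glucose library of replicates 1, 3 and 4 (adjusted p 0.0517 to 0.12), and without the filter on low counts (adjusted p = 0.0579). Adcyap1r1, the PACAP-selective receptor, did not pass the filter, with means of 0.272 and 0.32 CPM. The tachykinin receptor gene Tacr3 rose 3.65-fold, from 1.04 ± 0.200 to 3.8 ± 1.73 CPM (adjusted p = 0.0019), and high glucose replicate 2 was the highest library at 6.39 CPM. Sort1, a sorting receptor that also binds neurotensin, fell from 302 ± 34.5 to 217 ± 15.6 CPM (adjusted p = 0.00463).

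Cckar, the cholecystokinin receptor of acinar cells, had 26.8, 13.8, 10.4 and 47.6 CPM in high and 19.0, 6.80, 3.60 and 28.3 CPM in low glucose. Its replicates stood in the same order as those of Gal, and both groups overlapped widely. The log2 fold change was 0.77 ± 0.61 (SE) with edgeR adjusted p = 0.397, and with the replicate number as a block it was 0.87 with adjusted p = 0.00035. Without high glucose replicate 4 it was 0.23, and without low glucose replicate 4 it was 1.31. The acinar marker sum given above was likewise highest in replicate 4 and next in replicate 1 of both groups. Its part in the value was not tested. Cckbr, the receptor that gastrin prefers, did not pass the filter, at 0.134 ± 0.112 and 0.213 ± 0.117 CPM, nor did the opioid receptor genes Oprd1 and Oprm1, with means of at most 0.0626 CPM.

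Enzymes that turn precursors into peptides moved in both directions. All 18 genes of the processing list were tested, of which 5 rose and 3 fell, or 44.4%, beside 25% of all tested genes, with a median log2 fold change of 0.07. With the replicate number as a block the share was again 44.4%, beside 37.4% of all tested genes. Pcsk1, the convertase that makes the first cuts in many prohormones, rose 2.20-fold from 699 ± 45.3 to 1540 ± 81.6 CPM (edgeR adjusted p = 9.03e-06). Pam, the amidating enzyme that finishes gastrin, cholecystokinin and VIP, rose 2.08-fold from 553 ± 40.4 to 1153 ± 71.6 CPM (adjusted p = 1.62e-05). Cpe, the carboxypeptidase that trims basic residues, rose from 3561 ± 423 to 5026 ± 281 CPM (adjusted p = 0.00385). The other genes to rise, named after their values were seen, were Pcsk2, the second granule convertase, from 3746 ± 297 to 4873 ± 491 CPM (adjusted p = 0.0152), and its chaperone gene Scg5, from 728 ± 139 to 973 ± 113 CPM (adjusted p = 0.044). Pcsk2 was not called without low glucose replicate 4, where the count of genes that rose was 3, and of the 8 fits that each left out a library, Scg5 was called only in the one without low glucose replicate 2.

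Pcsk6, a convertase of the constitutive secretory route, fell from 45.2 ± 3.84 to 17.8 ± 1.41 CPM (edgeR adjusted p = 6.25e-06). Pcsk1n, which encodes proSAAS, an inhibitor of the Pcsk1 product, fell from 1639 ± 408 to 1118 ± 169 CPM (adjusted p = 0.0339). That call did not hold when high glucose replicate 1, 3 or 4, or replicate 4 of low glucose, was left out (adjusted p 0.0534 to 0.0896). Pam, Pcsk6, Pcsk1n and Pcsk2 each overlap another gene, as do Sort1, Vipr2, Anpep, Dpp4, Npepps, Ece1, Crtc3 and Ttyh1. The strand setting was not stated, so their values are uncertain to that extent.

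Of 14 peptidases that degrade neuropeptides, 13 were tested, 2 rose and 2 fell, or 30.8%, beside 25% of all tested genes, with a median log2 fold change of 0.06. Dpp3, a peptidase of enkephalins and angiotensins, rose 1.66-fold from 75.0 ± 4.18 to 124 ± 6.96 CPM (edgeR adjusted p = 5.94e-05), and Anpep, aminopeptidase N, rose from 68.0 ± 6.24 to 91.4 ± 5.74 CPM (adjusted p = 0.00375). Dpp4, which inactivates incretins and shortens neuropeptide Y, fell from 117 ± 7.0 to 98.8 ± 1.90 CPM (adjusted p = 0.021), and Npepps fell from 141 ± 8.28 to 121.5 ± 3.77 CPM (adjusted p = 0.0368). The decreases were small and depended on the libraries. Dpp4 was not called when high glucose replicate 1 or 4, or replicate 1, 3 or 4 of low glucose, was left out (adjusted p 0.0573 to 0.0645). Npepps was called in only 1 of the 8 fits that left out a library, the one without low glucose replicate 2, with adjusted p of 0.0602 to 0.101 in the others. Neither was called without the filter on low counts (adjusted p 0.0521 and 0.0859). With the replicate block 4 genes of this list rose. Ece1, the most abundant peptidase by FPKM, was at 725 ± 65.7 and 697 ± 45.9 CPM with adjusted p = 0.686.

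Among peptide genes outside the set, a list of 62 neuropeptide and gut hormone genes was read from the same fit, of which 48 were analysed here and 20 passed the filter. Of these 20, 6 rose and 2 fell, or 40%, beside 25% of all tested genes, and the median log2 fold change was 0.43. Rare genes could pass the filter through the group in which they were higher, so nothing further is read from this share. Nucb2, the precursor of nesfatin, rose 3.56-fold from 118 ± 8.77 to 420 ± 20.0 CPM (edgeR adjusted p = 8.53e-07). Vgf, a granule peptide precursor, rose 6.04-fold from 41.2 ± 8.59 to 249 ± 44.8 CPM (adjusted p = 6.63e-06). Adm2, of the calcitonin peptide family, rose 3.35-fold from 4.86 ± 0.674 to 16.3 ± 1.88 CPM (adjusted p = 1.67e-05). Cartpt, an appetite-suppressing peptide gene, rose 3.22-fold from 1.47 ± 0.309 to 4.71 ± 1.16 CPM (adjusted p = 0.000758).

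The genes that fell were Ucn3, a peptide of mature β cells, from 561 ± 56.1 to 323.5 ± 49.7 CPM (edgeR adjusted p = 0.000829), and Edn2, an endothelin, from 2.05 ± 0.775 to 0.341 ± 0.202 CPM (adjusted p = 0.00182). High glucose replicates 1 to 4 held Edn2 at 0.144, 0.364, 0.613 and 0.243 CPM, near the detection floor. Edn2 passed the filter through its low glucose libraries, so its fold change is uncertain. Iapp, the gene of the β-cell peptide amylin, which overlaps Slco1a5, rose 1.63-fold (edgeR adjusted p = 0.00248). The glucagon gene Gcg was at 16930 ± 5069 and 19300 ± 6291 CPM with adjusted p = 0.626, and its log2 fold change of -0.19 became 0.05 without low glucose replicate 2. No tested gene of this list reached the fitted difference of Pdyn, and the largest were Vgf at a log2 fold change of 2.59 ± 0.17 (SE) and Edn2 at -2.58 ± 0.44 (SE). These differences between genes were not tested.

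**Figure D4:**
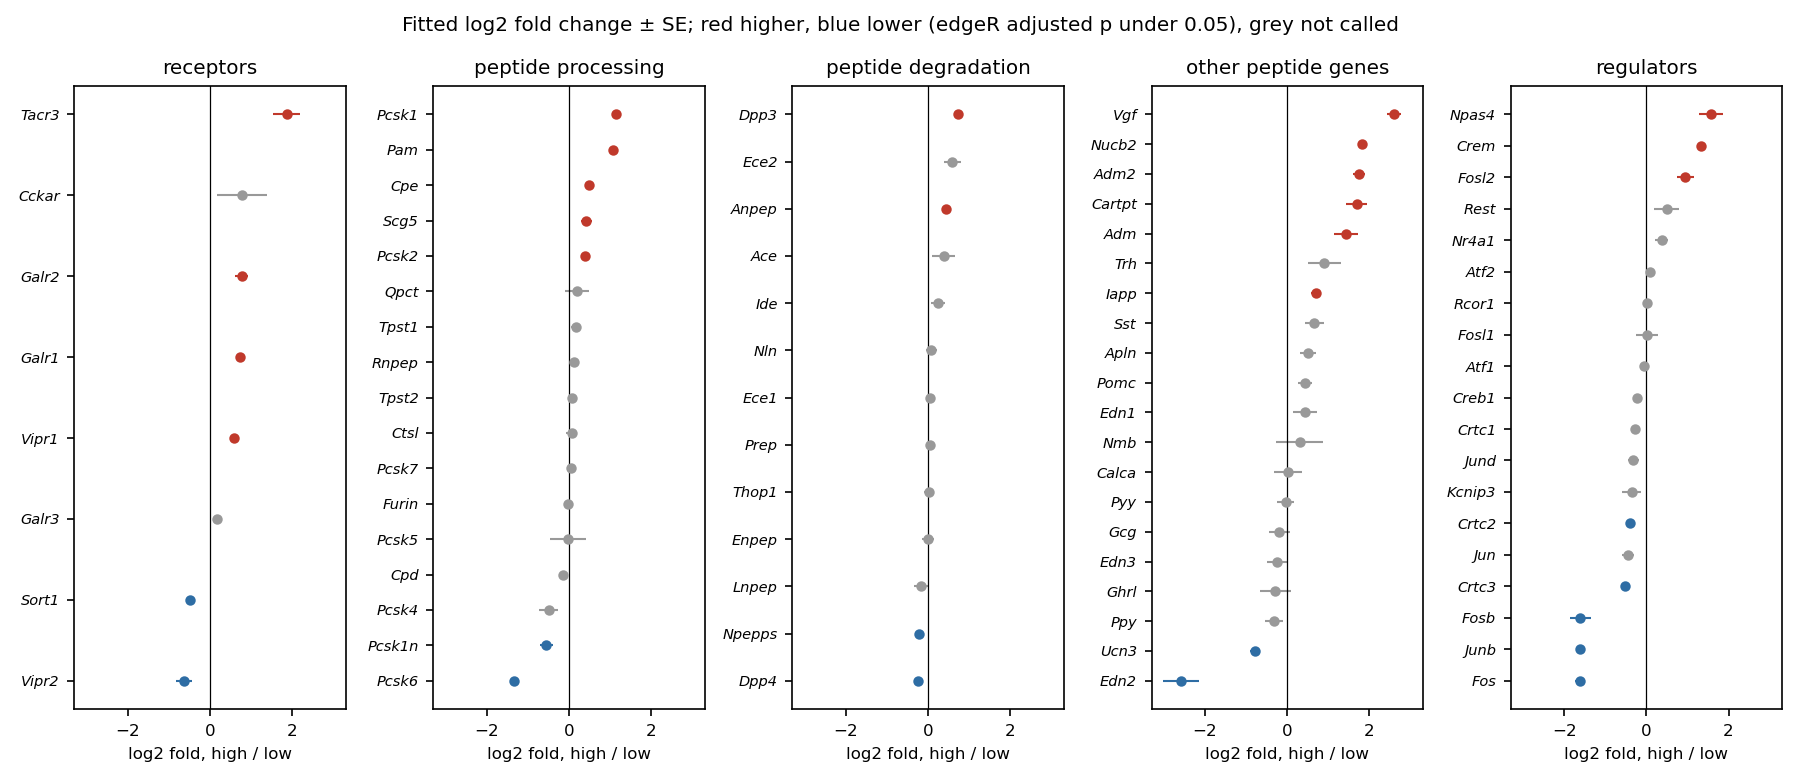
Fitted log2 fold change, high over low glucose (horizontal axis), with its SE, for the tested genes of 5 lists, fitted over all 8 libraries, with 1 processing gene not shown. Red points were called higher and blue points lower at edgeR adjusted p under 0.05, and grey points were not called. Among the receptors 4 are red and 2 blue, and among the regulators 3 are red and 5 blue.

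Transcription factors and cofactors known to drive neuropeptide genes were examined as a list of 19 genes, built around CREB and its coactivators, the AP-1 proteins and the repressors REST and DREAM (Kcnip3). All 19 were tested, 3 rose and 5 fell, or 42.1%, beside 25% of all tested genes, with a median log2 fold change of -0.22. Crem, the CREB relative whose short forms repress cAMP-driven genes, rose 2.49-fold from 25.7 ± 3.06 to 64.1 ± 4.98 CPM (edgeR adjusted p = 1.102e-05). Npas4, an activity-induced factor, rose from 0.914 ± 0.268 to 2.72 ± 0.753 CPM (adjusted p = 0.00312), and Fosl2 rose from 20.3 ± 6.17 to 39.3 ± 7.32 CPM (adjusted p = 0.00717).

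Of the AP-1 genes of the immediate-early type, Fos fell from 169 ± 16.7 to 55.3 ± 7.82 CPM (edgeR adjusted p = 8.87e-06), Junb from 307 ± 36.6 to 101 ± 8.05 CPM (adjusted p = 5.84e-06) and Fosb from 6.95 ± 2.11 to 2.29 ± 0.501 CPM (adjusted p = 0.0011). Junb overlaps Prdx2 and Crem overlaps Gm6225 on the opposite strand, so both values are uncertain to that extent. The other genes to fall, named after their values were seen, were the CREB coactivators Crtc2, from 47.5 ± 2.48 to 36.1 ± 1.81 CPM, and Crtc3, from 44.2 ± 4.39 to 30.9 ± 2.11 CPM. Jund was at 91.6 ± 9.78 and 114 ± 20.1 CPM (edgeR adjusted p = 0.0963). With the replicate block its edgeR adjusted p was 0.0141, and with library size alone it was 0.0294. With that block 9 genes of the list fell, and with library size alone 8 fell.

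Start regions were compared for letters of sites that such factors are known to bind. RefSeq promoters (GRCm38.p6, 250 bases before to 50 after the start) were matched for 9 of the 10 genes, with 11 start regions in all. The core letters of the cAMP response element, TGACG on either strand, occurred in a start region of Cck, Nts, Tac1, Gal, Adcyap1 and Vip and in none of Pdyn, Npy or Gast. Among all 32851 RefSeq promoters of that length, 20.8% held it. The full palindrome TGACGTCA occurred in none of the 11 and in 1.79% of all. The E-box CACGTG occurred in Cck and Tac1 and in 7.15% of all, and the AP-1 letters TGACTCA in Nts and in 5.2% of all. The TATA box TATAAA, on either strand, occurred in Gast, Vip and Adcyap1 and in 13.6% of all.

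The start regions of the 3 genes whose groups stood apart are shown so that this can be read directly. Capitals mark matches, which in Cck are the E-box at -66 and the cAMP element core on the reverse strand at -47 relative to the start, and in Gast the TATA letters on the reverse strand at -28. Of the 2 Pdyn start regions the upstream one is shown, and neither holds any of the 5 motifs. A match of letters is a description and not evidence of binding, and each motif found in these 3 start regions also occurred in another gene of the set.
Pdyn, minus strand, chr2:129699889-129700188: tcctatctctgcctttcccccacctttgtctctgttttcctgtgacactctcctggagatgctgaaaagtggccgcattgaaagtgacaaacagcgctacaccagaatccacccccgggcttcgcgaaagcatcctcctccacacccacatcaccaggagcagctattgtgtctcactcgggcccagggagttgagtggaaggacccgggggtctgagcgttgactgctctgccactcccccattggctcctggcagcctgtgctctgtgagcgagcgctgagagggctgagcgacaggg
Gast, plus strand, chr11:100334157-100334456: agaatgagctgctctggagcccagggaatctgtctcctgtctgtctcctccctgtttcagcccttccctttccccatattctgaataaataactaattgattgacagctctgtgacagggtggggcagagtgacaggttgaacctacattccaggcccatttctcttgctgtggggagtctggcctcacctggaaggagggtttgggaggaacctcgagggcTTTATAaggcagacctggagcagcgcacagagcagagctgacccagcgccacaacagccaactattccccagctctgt
Cck, minus strand, chr9:121495645-121495944: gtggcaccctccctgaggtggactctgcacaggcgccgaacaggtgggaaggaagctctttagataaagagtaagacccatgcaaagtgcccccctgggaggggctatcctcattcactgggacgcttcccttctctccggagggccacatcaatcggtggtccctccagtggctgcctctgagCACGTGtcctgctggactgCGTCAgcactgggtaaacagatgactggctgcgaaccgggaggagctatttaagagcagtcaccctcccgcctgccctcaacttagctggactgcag

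The genes whose pattern came closest to that of Pdyn were sought among 10537 other tested protein-coding genes with a mean of at least 5 CPM. Likeness was the root mean square distance between log2 CPM profiles over the 8 libraries, each centred on its own mean. The nearest were Cox6a2, a cytochrome oxidase subunit isoform (distance 0.217), Tent5a, a poly(A) polymerase (0.285), Ttyh1, a membrane protein gene (0.340), Dapl1 (0.369) and Nptx2, a secreted pentraxin of synapses (0.370). Each had a higher level in every high glucose library than in any low glucose library, as the choice by likeness to Pdyn implies. Cox6a2 was at 74.7 ± 17.3 and 7.09 ± 1.07 CPM, and it overlaps Itgad, so its value is uncertain. Tent5a was at 305 ± 13.4 and 34.6 ± 4.32 CPM, and Nptx2 at 35.1 ± 8.41 and 4.29 ± 1.27 CPM.

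**Figure D5:**
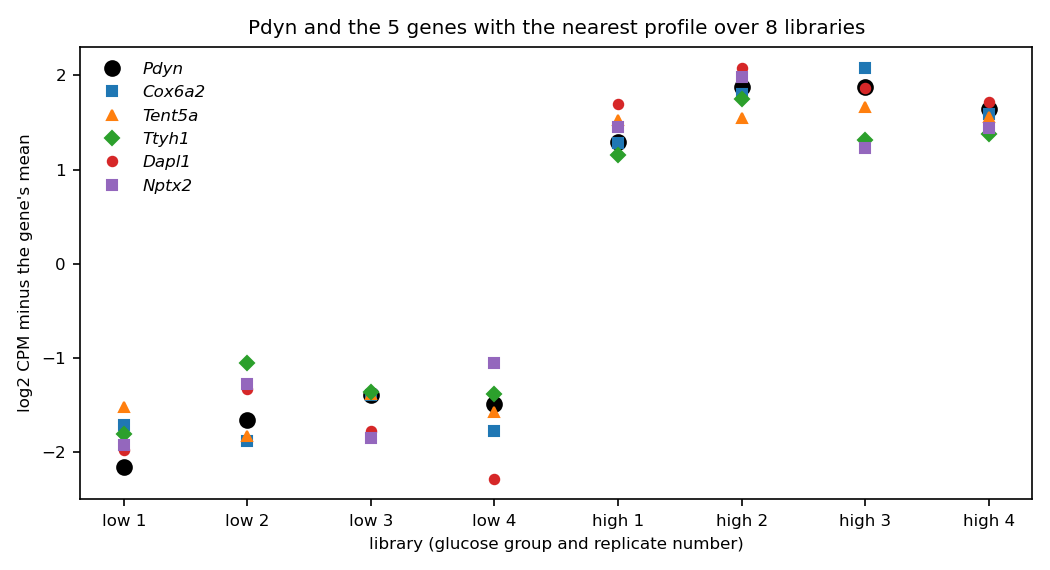
Log2 CPM minus each gene's own mean (vertical axis) in the 8 libraries (horizontal axis) for Pdyn (large black circles) and the 5 genes with the nearest profile. All 6 genes lie below their mean in the low glucose libraries and above it in the high glucose libraries, with distances to Pdyn of 0.217 to 0.370.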

How the data were processed

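Per the labels' protocols, RNA was prepared with a micro kit and libraries with the NEBNext Ultra kit. Per the submitters' processing notes, STAR 2.5, HTSeq 2 and DESeq2 were used with mm10 (GRCm38); the strand setting, annotation release and handling of multiply mapped reads were not stated there. The deposited table gives, for every gene, the authors' read count in each library, a deposited signal that is the count over a library-wide size factor, the authors' FPKM (count over listed gene length and a library total), and the authors' own log2 fold change and p-value, which were not used here. No 2 replicates agreed within sampling noise (chi-square per gene of at least 14.1).

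The test was edgeR 4.0.16 (R 4.3.3) on the counts as deposited (quasi-likelihood, TMM scaling, filterByExpr with minimum count 10 and minimum total 15, group as the only term, all 8 libraries). P-values were adjusted by Benjamini-Hochberg over 15442 genes. The pipeline was tested on simulated counts. Alternatives were RLE size factors, library size alone, no filter, DESeq2 1.42.0, limma-voom (limma 3.58.1), the ratio of mean FPKM for the 10 genes, a replicate block and leaving out each library. Deviations from the group mean correlated between same-numbered libraries at 0.101, 0.449, 0.404 and 0.475 over all tested genes, so the numbers were taken to pair the libraries. Low glucose replicate 1 correlated more with high glucose replicate 4 (0.207) than with its own number, so pair 1 is weakly supported. This pairing comes from the data and not from the labels.

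The 10 genes, the lists and the alternatives were chosen with earlier results of these data known. The text names all 10 genes, any receptor, per list up to 4 called genes of smallest adjusted p and 2 called the other way, its 2 genes of highest FPKM, the 5 genes nearest to Pdyn, and the leading markers of each cell type list. Sequences are from RefSeq (GRCm38.p6) and GENCODE M21 transcripts (GRCm38); 8 of the 10 genes have the same coordinates there as in the deposited table. A gene counted in 1 list and a sequence stretch are not reported here.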

Additional observations from a re-analysis of the deposited data

Results flagged for a closer look

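Of 108 groups of 4 libraries examined for a single library far from the rest, 5 stood out by Dixon's criterion, which chance gives for about 1 in 20. Tacr3 was at 6.39 CPM in high glucose replicate 2, against 2.83 to 3.15 CPM in the other high glucose libraries. Iapp was at 23910 CPM in low glucose replicate 2, against 17320 to 18020 CPM. The summed markers of PP cells, Ppy and Pyy, were at 5852 CPM in low glucose replicate 2, against 2995 to 3459 CPM, and this is also the library with the highest Vip level. The summed markers of gut endocrine cells were at 374.6 CPM in low glucose replicate 1, against 425.6 to 431.6 CPM. The summed markers of fibroblasts and stellate cells were at 1141 CPM in high glucose replicate 1, against 141.9 to 308.2 CPM, and that library was the lowest of its group for Pdyn and the highest for Cck.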

How the results depend on the processing

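The log2 fold changes of Pdyn (3.196 to 3.44), Gast (2.64 to 3.32) and Cck (2.60 to 3.11) moved by less than their spread between replicates under each of 15 alternatives. Leaving out 1 library moved Vip between -0.23 and 1.32. With the replicate block, 2917 genes were higher and 2862 lower, 4 peptidases rose and 9 regulators fell. The shares called were 46.2% of peptidases and 63.2% of regulators, beside 37.4% of all genes. For receptors, processing genes and other peptide genes the shares were 87.5%, 44.4% and 50%. The block changed the call of Cckar and Jund and of no other gene of the naming rule. With library size alone 8 regulators fell and the log2 fold change of Ece1 was -0.0281. Without a filter 1 receptor and 0 peptidases fell. Leaving out 1 library gave 1 to 2 receptors and 0 to 3 peptidases that fell and 3 to 5 processing genes that rose, and log2 fold changes of -0.0087 to 0.088 for Ece1 and -0.3872 to 0.0518 for Gcg. The cause of these shifts was not tested. Depth limits Penk, Gast, Cck and Nts, with 1 to 52 reads a library, and leaves Tac1 and Adcyap1 unmeasured.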
